A study of Mus musculus with 11 samples.

Results

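The genes described here mark alveolar type 1 cells, the flat epithelial cells across which gas is exchanged. The 10 members, Ager, Hopx, Aqp5, Akap5, Clic5, Gprc5a, Pdpn, Cav1, Rtkn2 and Emp2, were taken by symbol from a table of 19938 genes, and each had a single row. They were followed over 11 mouse gene arrays, 1 per lung sample, of strain 129S1. The combination group (3 arrays) had received aspirin at 4 mg/kg with triptolide at 1 mg/kg, the triptolide group (3 arrays) triptolide alone at 1 mg/kg, and the aspirin group (3 arrays) aspirin alone at 4 mg/kg, each by gavage on 5 days a week for 2 months. The control group (2 arrays) is titled untreated, while the protocol lists a PBS buffer group in its place, and the labels do not settle which it was. The study's title places it in lung cancer suppression, but the labels name no carcinogen, tumour, sex or age. They do not say that replicates are separate animals, so p-values measure only the spread between these samples.

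Type 1 cells cover most of the alveolar surface, share a thin basement membrane with the capillary endothelium, and are renewed from the surfactant-making type 2 cells. Their identity depends on the lung transcription factor Nkx2-1 and on the coactivators YAP and TAZ (genes Yap1 and Wwtr1), which act through TEAD factors. Triptolide, a diterpenoid of the thunder god vine, blocks transcription through a subunit of the general factor TFIIH, and aspirin inhibits the cyclooxygenases that make prostaglandins. In whole lung tissue, fewer cells of a type and less RNA per cell cannot be told apart.

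All 10 members had their lowest mean in the combination group. Against control, the fitted log2 differences lay between -1.01 for Akap5 and -0.36 for Pdpn, with a median of -0.62, where 47.2% of all genes lay below 0. Triptolide alone lay between -0.36 and -0.01 of control, and aspirin alone between -0.16 and 0.21. None of these differences passed the limma test at an adjusted p under 0.05, nor did any of the 19938 genes (0.0%) in any of the 7 comparisons made. For the combination against control, 9 of the 10 members lay lower at an unadjusted p under 0.05, where 10.6% of all genes did. The combination arrays were spread widely and were not alike: combination 1 lay lowest of all 11 arrays in 10 of 10 members, as it did in 27.4% of all genes, and combination 3 lay nearest to control.

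Set against its label, the group was well measured in these lungs: no member read below 9.35 on any array, while the medians of the arrays over all rows ran from 8.135 to 8.254. Levels of different members cannot be compared, because each is read by its own probes. Promoter windows of some members are shown because these genes varied together across the arrays, and their start sites can be compared. RefSeq (GRCm38.p6) gave a window of 250 bases before to 50 after the start for 8 of the 10 members, 10 windows in all. They were searched on both strands for GGAATG, the core bound by TEAD factors, and CAAGTG, a core bound by NKX2-1. The 2 motifs share no position in the windows printed. GGAATG was in 0 of the 10 windows and in 14.7% of all 32851 windows. CAAGTG was in 1 of the 10 and in 13.6% of all windows, and no match says only that these letters are not in the window. The first 2 windows belong to the members farthest from and nearest to control with the combination, and the third to the only member with a match. Capitals mark that match, which reads CACTTG on the strand shown and spans bases 285 to 290 of the window.
Akap5, chr12:76324641-76324940, plus strand: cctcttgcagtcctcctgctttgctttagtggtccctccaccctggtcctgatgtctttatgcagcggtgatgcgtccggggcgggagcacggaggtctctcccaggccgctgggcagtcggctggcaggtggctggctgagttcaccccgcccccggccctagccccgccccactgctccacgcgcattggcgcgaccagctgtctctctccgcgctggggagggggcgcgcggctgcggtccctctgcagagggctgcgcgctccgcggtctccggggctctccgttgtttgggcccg
Pdpn, chr4:143299515-143299814, minus strand: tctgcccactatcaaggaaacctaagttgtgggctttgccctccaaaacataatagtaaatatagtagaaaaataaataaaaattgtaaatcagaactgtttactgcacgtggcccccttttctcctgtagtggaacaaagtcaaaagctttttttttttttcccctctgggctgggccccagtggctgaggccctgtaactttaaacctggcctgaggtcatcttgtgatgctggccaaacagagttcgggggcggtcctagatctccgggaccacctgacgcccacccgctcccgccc
Hopx, chr5:77095218-77095517, minus strand: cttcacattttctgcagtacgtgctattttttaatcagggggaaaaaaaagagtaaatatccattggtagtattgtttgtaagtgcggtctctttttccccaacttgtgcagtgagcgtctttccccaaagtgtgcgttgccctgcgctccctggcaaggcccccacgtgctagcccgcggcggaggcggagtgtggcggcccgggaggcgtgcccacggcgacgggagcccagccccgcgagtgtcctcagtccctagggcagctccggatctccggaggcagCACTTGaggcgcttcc

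Among the surface receptors and channels, Ager encodes the receptor for advanced glycation end products, which lines the basal membrane of type 1 cells. Its log2 level was 12.03, 12.65 and 12.85 on combination 1, 2 and 3, against 12.94, 12.91 and 13.06 with triptolide, 13.14, 13.12 and 13.09 with aspirin, and 13.10 and 13.08 in control. Every combination array lay below the other 8 arrays, and the aspirin and control arrays lay close together. The difference from control was -0.58 ± 0.19 (SE; limma adjusted p = 0.197), or 1.49-fold lower.

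Aqp5, the apical water channel, read 10.57, 11.21 and 11.23 with the combination, against 11.51, 11.88 and 11.63 with triptolide, 11.65, 11.65 and 11.68 with aspirin, and 11.69 and 11.69 in control. Combination 2 and 3 were close together, and all 3 combination arrays again lay below the other 8. Its difference from control was -0.69 ± 0.18 (limma adjusted p = 0.127).

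Gprc5a, a retinoic acid-induced orphan receptor whose loss lets lung tumours form in mice, read 11.05, 11.46 and 12.05 with the combination. It read 12.14, 12.43 and 12.27 with triptolide, 12.04, 12.34 and 12.35 with aspirin, and 12.27 and 12.30 in control. Combination 3 lay above aspirin 1, so the combination and aspirin groups overlapped. The difference from control was -0.77 ± 0.23 (limma adjusted p = 0.172), and the SD within the combination, 0.50, was the widest of any member.

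Clic5, which ties the membrane to the actin skeleton, read 11.69, 12.06 and 12.38 with the combination, against 12.46, 12.46 and 12.64 with triptolide, 12.66, 12.69 and 12.79 with aspirin, and 12.73 and 12.66 in control. Its triptolide arrays all lay below control and below aspirin as well. The combination differed from control by -0.65 ± 0.16 (limma adjusted p = 0.108).

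Akap5, a scaffold that anchors protein kinase A and calcineurin at the membrane, showed the largest difference among the members. It read 10.39, 10.75 and 11.21 with the combination, against 11.22, 11.40 and 11.69 with triptolide, 12.03, 11.66 and 11.83 with aspirin, and 11.92 and 11.67 in control. Combination 3 lay just under triptolide 1, and triptolide 3 overlapped the control range. On combination 1 the level came to 37.7% of the control mean, on combination 2 to 48.3% and on combination 3 to 66.8%. The combination differed from control by -1.01 ± 0.22 (limma adjusted p = 0.0855), and triptolide alone by -0.36 ± 0.22.

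Among the membrane proteins, Cav1 builds the coat of caveolae and is made by endothelium as well as by type 1 cells. It read 11.86, 12.38 and 12.53 with the combination, against 12.66, 12.60 and 12.79 with triptolide, 12.75, 12.77 and 12.85 with aspirin, and 13.01 and 12.89 in control. It was the only member whose 9 treated arrays all lay below both controls, a pattern that 4.26% of all genes showed. The differences from control were -0.70 ± 0.16 with the combination (limma adjusted p = 0.101), -0.27 ± 0.16 with triptolide and -0.16 ± 0.16 with aspirin (adjusted p of 1 for each of the single drugs).

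Pdpn, podoplanin, a mucin-like surface protein that lymphatic vessels also carry, stood apart from the other members. It read 11.09, 11.56 and 11.85 with the combination, against 11.81, 11.79 and 11.94 with triptolide, 12.13, 12.09 and 12.00 with aspirin, and 11.84 and 11.89 in control. Combination 3 lay within the control range, and all aspirin arrays lay above control. The combination difference was -0.36 ± 0.17 (limma adjusted p = 0.391), and aspirin alone differed by 0.21 ± 0.17. The lymphatic endothelial list, which shares this protein, had 3 of 5 measured members below control with the combination and a median of -0.02. Its members with the smallest p were Flt4 (-0.57 ± 0.14), Lyve1 (-0.68 ± 0.24), Prox1 (0.30 ± 0.11) and Reln (0.40 ± 0.20), so that they lay on both sides of control.

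Emp2, a membrane protein with 4 spans, read 12.39, 12.71 and 13.12 with the combination, against 13.14 to 13.33 with triptolide, 13.30 to 13.39 with aspirin, and 13.31 and 13.32 in control. Its combination difference was -0.58 ± 0.17 (limma adjusted p = 0.161). Hopx, a homeodomain protein that does not bind DNA itself, read 10.61, 10.94 and 11.32 with the combination, against 11.36 to 11.59 with triptolide, 11.54 to 11.61 with aspirin, and 11.52 and 11.48 in control. In both genes the combination arrays lay below all others, and the combination spread was wider than that of any other group. Rtkn2 read 9.35, 9.80 and 10.17 with the combination, against 10.20 to 10.41 with triptolide, 10.25 to 10.44 with aspirin, and 10.40 and 10.23 in control. Hopx and Rtkn2 each differed from control by -0.54, with an SE of 0.16 and 0.19 and a limma adjusted p of 0.176 and 0.227.

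**Figure D1:**
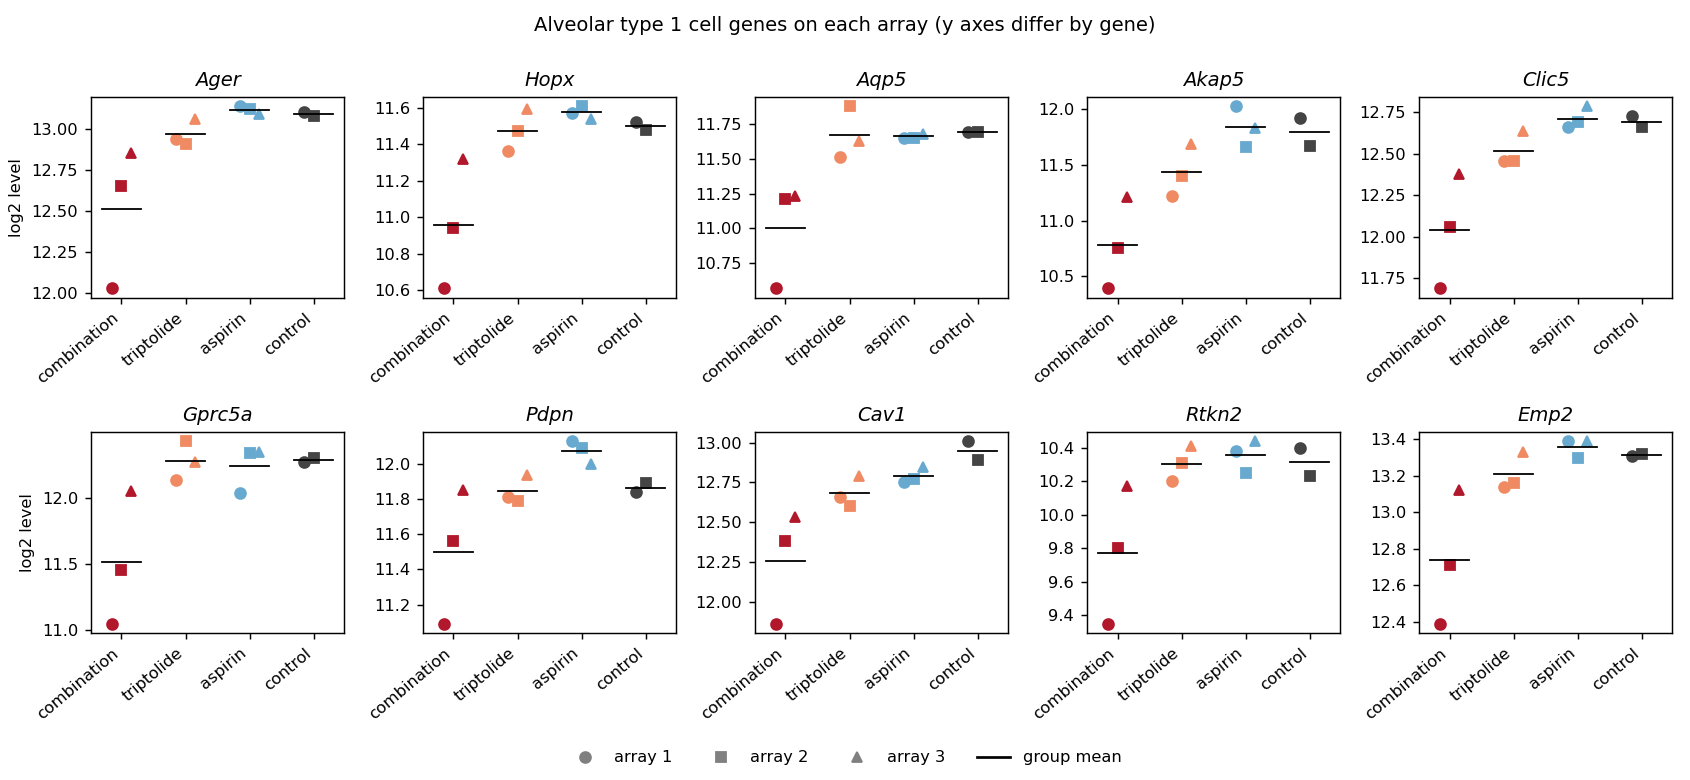
Log2 level of each of the 10 genes (y axis, own scale per gene) on the 11 arrays by treatment group (x axis); each point is 1 array, its shape gives the replicate number, and bars are group means. Combination 1 is the lowest point in every panel, and in 8 of the 10 panels all combination points lie below every other point.

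In 8 of the 10 members, Gprc5a and Pdpn being the exceptions, every combination array lay below all 8 other arrays, which 4.04% of all genes did. Set against control alone, 9 of 10 members did not overlap and were lower, where 20.5% of all genes were. That combination 2 and 3 lay below both controls in the same 9 members follows from this, and 28.4% of all genes showed it. On combination 1 the members lay 0.78 to 1.41 below their control means, written as log2 differences of -0.78 for Pdpn and -1.41 for Akap5. Combination 2 ran from -1.05 to -0.30 and combination 3 from -0.58 to -0.01, with Akap5 the lowest and Pdpn the highest on each. Akap5 was also the lowest and Pdpn the highest on triptolide 1, at -0.58 and -0.05, and all these differences share the same 2 control arrays. The median difference was -1.03, -0.57 and -0.24 on combination 1, 2 and 3.

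Which members passed depended on the arrays in the fit. Without combination 3, 9 of 10 members passed against control, from -1.23 for Akap5 (limma adjusted p = 0.0143) to -0.72 for Hopx (0.0179), and Pdpn did not, at -0.54 (0.0687). The fit then called 896 genes in all. Without combination 1 none passed: the differences ran from -0.82 to -0.16 with a median of -0.44, and the smallest adjusted p was that of Cav1, 0.0566. Without combination 2 none passed either, and the smallest adjusted p was again that of Cav1, 0.195, at -0.76. All 10 members stayed below control in each of these fits. Arrays were also weighted by their spread, which gave combination 1 the lowest weight, 0.149. The highest weights were those of aspirin 3, 5.99, and triptolide 3, 3.3, so the fit leaned on few arrays. With these weights 8 members passed among 1704 of the 19938 genes, and Pdpn, at -0.23, and Rtkn2 did not.

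**Figure D2:**
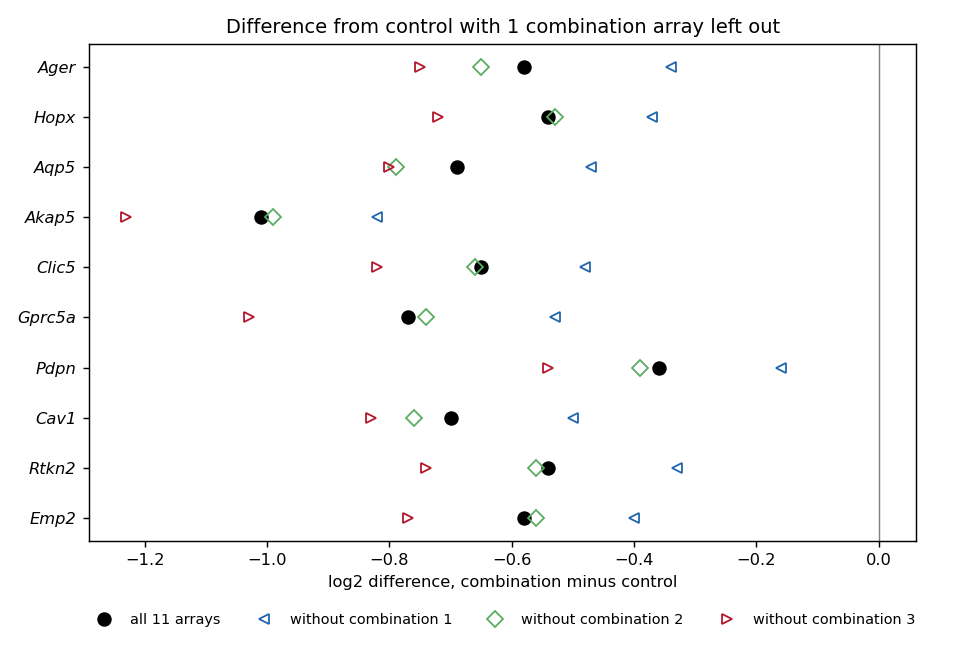
Log2 difference of the combination from control (x axis) for each gene (y axis), fitted on all 11 arrays (filled) and without combination 1, 2 or 3 (open). Every value is below 0; leaving out combination 1 brings all genes nearer to 0, to a median of -0.44, and leaving out combination 3 takes all of them farther.

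Neither drug alone gave a difference of that size. With triptolide, all 10 members had a fitted difference below 0, as did 55.0% of all genes, and the median was -0.06. Ager, Clic5 and Cav1 did not overlap control and were lower, 3 of 10 members against 13.3% of all genes. None of the 10 reached an unadjusted p under 0.05 (2.81% of all genes did), and the limma adjusted p was 1 for each. The 95% intervals of the triptolide differences reached down to -0.85 for Akap5 and to between -0.63 and -0.39 for the other members. With aspirin, 3 members lay below control and 7 above, with a median of 0.04, and 51.7% of all genes lay below. Aqp5 and Cav1 did not overlap control and were lower (16.0% of all genes), and Hopx and Pdpn did not overlap and were higher (2003 of the 19938 genes). Its 95% intervals ran no lower than -0.55, for Gprc5a, and no higher than 0.60, for Pdpn. No member had an unadjusted p under 0.05 with aspirin, where 3.05% of all genes did.

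**Figure D3:**
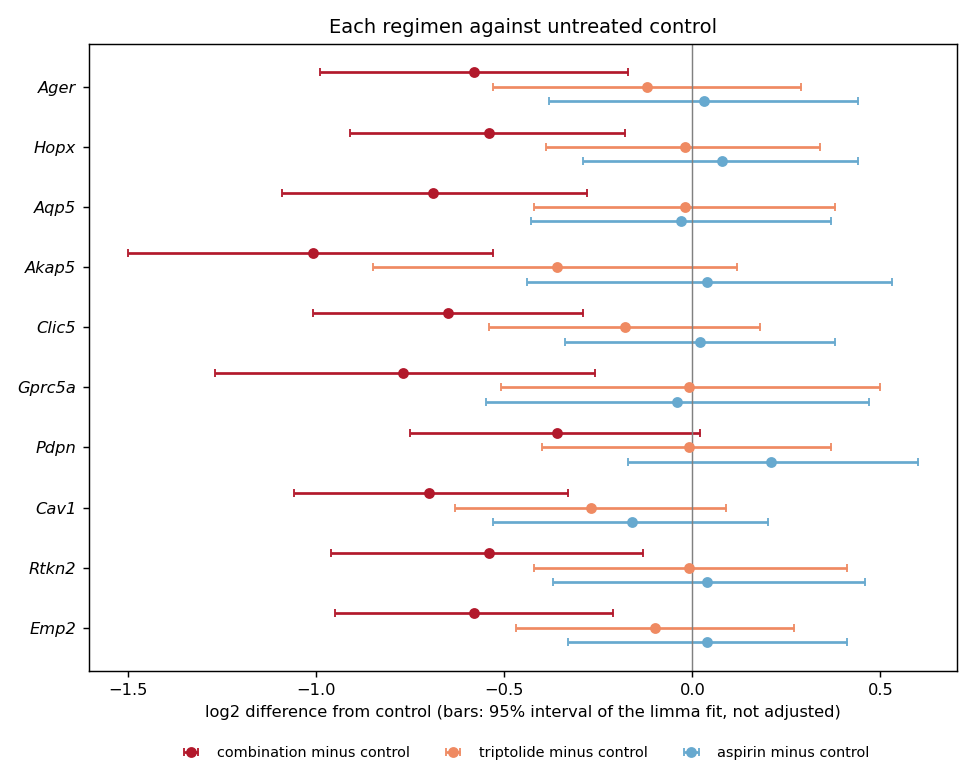
Log2 difference from control (x axis) of the combination, triptolide and aspirin groups for each gene (y axis); bars are 95% intervals of the limma fit, not adjusted for the number of genes. Combination intervals lie below 0 for all genes but Pdpn, and every triptolide and aspirin interval includes 0; the 3 comparisons share the same 2 control arrays.

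Adding one drug to the other was asked by setting the combination against each single drug. Against aspirin, all 10 members were lower (9974 of the 19938 genes were), from -1.06 ± 0.20 for Akap5 to -0.53 ± 0.15 for Cav1, with a median of -0.62 and an unadjusted p under 0.05 in 10 of 10 (8.22% of all genes, lower). The smallest limma adjusted p was 0.105, for Akap5, and 9 members did not overlap, Gprc5a being the exception (9.86% of all genes, lower). Without combination 3, all 10 passed and 704 genes were called. The combination and aspirin arrays also differed throughout in a Y-linked gene, Eif2s3y. With the level of 3 such genes as a covariate, none of the 10 had an unadjusted p under 0.05. All 10 stayed lower in that fit, with a median of -0.47. Because the covariate separates these groups, the fit cannot tell it apart from the drug. Against triptolide, the 10 members lay lower too (46.7% of all genes did), from -0.76 ± 0.21 for Gprc5a to -0.35 ± 0.16 for Pdpn, with a median of -0.50 and an unadjusted p under 0.05 in 10 of 10 (10.1% of all genes, lower). Their smallest adjusted p was 0.353, and 9 did not overlap, all but Pdpn (9.53% of all genes, lower). Without combination 3, 1 member passed, and 24 genes in all. Triptolide against aspirin gave smaller values, with 8 members below 0 (53.1% of all genes), a median of -0.13 and none at an unadjusted p under 0.05 (3.31% of all genes). Ager, Clic5 and Pdpn did not overlap and were lower with triptolide, where 4.0% of all genes were.

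Whether the combination departed from the sum of the single drugs was tested as an interaction. The interaction was below 0 in all 10 members (48.0% of all genes), from -0.72 ± 0.31 for Gprc5a to -0.26 ± 0.22 for Cav1, with a median of -0.57. For 8 of them, all but Ager and Cav1, the unadjusted p was under 0.05, where 2.23% of all genes were lower at that p. The limma adjusted p was 0.895 for each member. Leaving out 1 array at a time moved the count of 8 to between 0 (without control 2) and 9 (without combination 3). It was 3 without combination 1, 3 without combination 2, 2 without control 1 and 5 without triptolide 1. It was 2 without triptolide 2 or 3, 3 without aspirin 1 or 3 and 4 without aspirin 2. The share of all genes at that p was not counted in these fits, so these counts have none beside them.

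A Y-linked gene was measured beside the members because its level differed between the groups. Eif2s3y read 5.40, 4.58 and 6.76 with the combination, 6.39, 9.82 and 9.56 with triptolide, 9.26, 9.48 and 9.45 with aspirin, and 5.29 and 5.05 in control. It was low on all combination and control arrays and on triptolide 1, and high on the rest. The members' list level was 0.22, 0.20 and 0.24 on the aspirin arrays and 0.23 and 0.17 on the control arrays. A list level here averages the listed genes' log2 values on 1 array, less the same average over all 11. With the mean level of 3 Y-linked genes, Eif2s3y, Uty and Kdm5d, as a covariate, 9 members kept an unadjusted p under 0.05 for the combination against control. None did against aspirin, against triptolide or for the interaction, whose medians were -0.47, -0.37 and -0.19, and Akap5's interaction stood at 0.01. The share of all genes at that p was not counted in this fit. For the combination against control, 96 of the 19938 genes passed the adjusted test in it. No member's adjusted p was under 0.05 in that fit. Sex, which the labels do not name, cannot be told apart from the drugs in the combination against aspirin or in aspirin against control. The comparisons with triptolide alone and the interaction were unbalanced in Eif2s3y too, as it was low on triptolide 1 and high on triptolide 2 and 3.

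Other genes of type 1 cells were followed to see whether the 10 members stood for more of the cell's programme. Of 25 listed symbols 24 were measured, and all 24 were below control with the combination, with a median of -0.52 where that of all genes was 0.01. At an unadjusted p under 0.05, 16 of them were lower, where 10.6% of all genes were, and 0 higher, and 0 passed the adjusted test. Flrt3, an adhesion protein, read 8.85, 9.19 and 9.22 with the combination and 10.04 and 10.01 in control, a difference of -0.94 ± 0.14 (limma adjusted p = 0.0579). It read 9.48, 9.67 and 9.92 with triptolide and 9.77, 9.65 and 9.82 with aspirin, so all its treated arrays lay below both controls (4.26% of all genes). Myrf, a membrane-bound transcription factor, read 8.87, 9.12 and 9.18 with the combination and 9.78 and 9.74 in control, a difference of -0.70 ± 0.11 (limma adjusted p = 0.0579). Its triptolide arrays, at 9.51, 9.47 and 9.58, also lay below control, and aspirin gave 9.77, 9.66 and 9.54. In both genes, as in Aqp5 among the 10 members, combination 3 lay close to combination 2. Cldn18, a tight junction protein of the alveolar epithelium, differed by -0.80 ± 0.20 and Ndnf, a secreted factor, by -0.93 ± 0.24. At the other end, Gramd2 and Col4a4, a basement membrane collagen, differed by -0.08 ± 0.22 and -0.09 ± 0.12. With triptolide alone the median of these genes was -0.05, with 15 of 24 below control, and with aspirin alone 0.05, with 9 of 24 below.

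Of 10 genes of the YAP, TAZ and TEAD pathway, 9 lay below control with the combination, with a median of -0.36, where 47.2% of all genes lay below, and 7 were lower at an unadjusted p under 0.05 (10.6% of all genes). The exception was Ccn2, a target gene of the pathway, at 0.32 ± 0.17. The coactivator TAZ (Wwtr1) read 9.78, 10.13 and 10.31 with the combination and 10.80 and 10.75 in control, a difference of -0.71 ± 0.14 (limma adjusted p = 0.0751). Wwtr1 read 10.37, 10.37 and 10.62 with triptolide and 10.48, 10.51 and 10.43 with aspirin. All its treated arrays thus lay below both controls, as in 4.26% of all genes. The DNA-binding partner of TAZ, Tead1, read 10.54, 11.03 and 11.30 with the combination and 11.48 and 11.45 in control, a difference of -0.51 ± 0.18 (limma adjusted p = 0.228). Amotl2, a junction protein that binds the coactivators, differed by -0.37 ± 0.13 and Tead4 by -0.29 ± 0.11. The lineage factor Nkx2-1 read 10.14, 10.84 and 10.88 with the combination and 10.86 and 10.94 in control, so that only combination 1 stood clearly lower.

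Levels of other cell types were set beside the members on the same arrays. The members' list level was -0.85, -0.40 and -0.08 on combination 1, 2 and 3, -0.01, 0.09 and 0.18 with triptolide, and 0.23 and 0.17 in control. Endothelial markers were also lowest with the combination, at -0.72, -0.37 and -0.22, against -0.13, -0.05 and 0.19 with triptolide and 0.38 and 0.30 in control. In the combination 15 of 15 lay below control, with a median of -0.78. Unlike the members, they also lay lower with triptolide alone. Their median was then -0.34, with 15 of 15 below control (55.0% of all genes), against -0.06 for the members. With aspirin alone their median was -0.11, with 12 of 15 below (51.7% of all genes), against 0.04 for the members. The endothelial junction cadherin Cdh5 differed by -0.89 ± 0.14 with the combination (limma adjusted p = 0.0579). Type 2 markers were lowest on combination 1, at -0.77, with combination 2 and 3 at -0.13 and -0.05 and control at 0.13 and 0.24. All 15 were below control, with a median of -0.44.

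Genes shared by lung epithelia differed less, with 8 of 10 below control, a median of -0.13 and a level of -0.54, 0.11 and 0.09 on combination 1, 2 and 3 and of -0.08 and 0.11 in control. Relative to these genes, and counted from the control mean, the 10 members stood at -0.49, -0.69 and -0.35 on combination 1, 2 and 3. They stood at -0.22, -0.39 and 0.02 on triptolide 1, 2 and 3, at 0.03, -0.01 and 0.10 with aspirin and at 0.12 and -0.12 in control, so that triptolide 2 lay below combination 3. Relative to type 2 markers the members stood at -0.10, -0.28 and -0.05 with the combination, -0.18, -0.41 and 0.12 with triptolide, 0.37, 0.16 and 0.21 with aspirin and 0.08 and -0.08 in control. There combination 3 lay within the control range and triptolide 2 below every combination array. Relative to endothelial markers they stood at 0.01, 0.11 and 0.28 with the combination, 0.26, 0.28 and 0.13 with triptolide, 0.09, 0.13 and 0.23 with aspirin and -0.01 and 0.01 in control. Genes of the transitional state between type 2 and type 1 cells lay below control in 7 of 8 measured members, with a median of -0.18, and Hbegf, an EGF receptor ligand, was the only one with an unadjusted p under 0.05, at -0.72 ± 0.16 (limma adjusted p = 0.0855). That 1 of 8 is near the 10.6% of all genes that were lower at that p.

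Combination 1 also stood apart from the other arrays, and lay at 60.2 on the first principal component while the others lay between -15.0 and 6.8. Its cell cycle level was 2.87 and its erythroid level 3.05, against -0.05 and -0.41 and against -0.43 and -0.70 on combination 2 and 3, and -0.33 and -0.27 and -0.38 and -0.43 in control. B and plasma cell markers stood at 0.96, 0.70 and 0.38 with the combination and -0.44 and -0.39 in control, and 9 of 9 measured lay above control, at a median of 1.02. Airway secretory and ciliated markers stood at 0.44, 1.36 and 0.12 with the combination and -0.51 and -0.25 in control, with 10 of 10 above control and a median of 0.91. Fibroblast markers were lowest on combination 1, at -0.63, with combination 2 and 3 at -0.01 and 0.14 and control at 0.23 and 0.13, and had 10 of 10 members below control and a median of -0.30. Mesothelial markers, whose cells also carry Pdpn, were at -0.85, 0.02 and -0.55 with the combination and 0.25 and -0.05 in control, with 7 of 7 below. Cardiac markers, of a tissue that also expresses Hopx, were at -0.20, -0.17 and -0.12 with the combination and -0.21 and -0.47 in control. With the combination 8 of 9 lay above control, at a median of only 0.08, where 47.2% of all genes lay below. All 9 lay above control with triptolide, at a median of 0.50, and with aspirin, at 0.56. The share of all genes below control was 55.0% and 51.7% there. The part of these lists in the members' values was not tested.

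**Figure D4:**
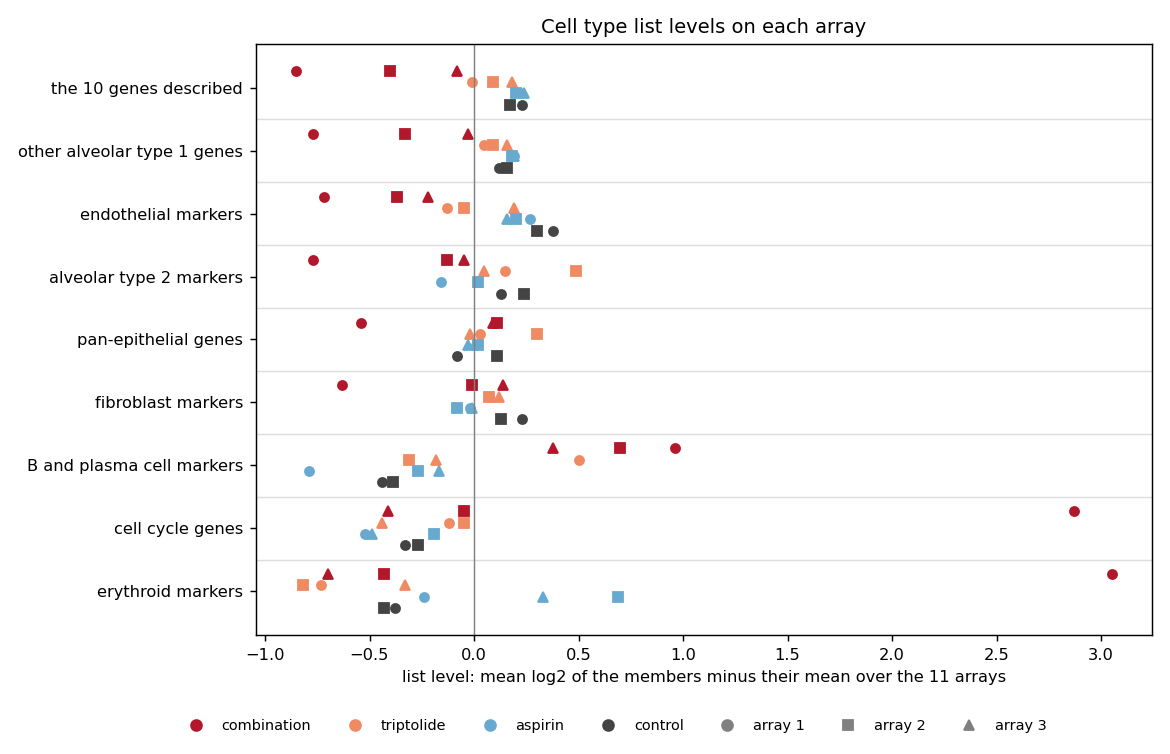
List level (x axis, mean log2 value of the listed genes less their average over all 11 arrays) for the 10 genes described and 8 cell type lists (y axis) on each array, coloured by group and shaped by replicate number. The 10 genes, the other type 1 genes and the endothelial markers have their lowest 3 points in the combination, whereas epithelial and fibroblast lists are lowest on combination 1, the array that is high in cell cycle and erythroid genes.

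The members followed each other across the arrays. Pearson's r between pairs ran from 0.84 (Akap5 with Gprc5a) to 0.99 (Clic5 with Emp2) over 11 arrays, with a median of 0.93 over 45 pairs. Outside the combination, over 8 arrays, it ran from -0.34 (Gprc5a with Pdpn) to 0.92 (Akap5 with Emp2), with a median of 0.56. The points are whole-lung arrays on which the cell type lists differ too, and r is given as a description. The genes most like the mean of the 10 members over the 11 arrays were Cryab, a small heat shock protein on the list of other type 1 genes, at r = 0.992, then Dab2ip (0.990), the motor protein Myo1c (0.989), Fkbp1a (0.988), Tead1 (0.988), Samd4 (0.987), Gnb1 (0.985) and Sema3b (0.985). Over the 10 arrays without combination 1 they were App (0.988), Zfp652 (0.988), Myo1c (0.985), Cryab (0.983), Itpkb (0.982), Add1 (0.978), Slc44a2 (0.978) and Popdc3 (0.972). Cryab and Myo1c were in both sets of 8, whereas Add1 had r = 0.005 once combination 1 was included.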

How the data were processed

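The deposited table holds log2 expression levels for 35556 rows on each of 11 arrays, with no detection call. The submitters' processing notes list RMA and Partek, and no version or genome build was given in the sources used here.

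Gene names came from the platform annotation: 21789 rows had 1 gene symbol, 1621 had several and were not used, and 12146 were unnamed. The row with the highest mean stood for each of 999 genes with several rows, leaving 19938 genes. The GRCm38.p6 RefSeq table changed 0 symbols.

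Groups came from the sample titles. limma 3.58.1 in R 4.3.3 (lmFit, eBayes) was fitted to all 11 arrays and 4 groups without covariates or a low-value filter, leaving 7 residual and 3.68 prior degrees of freedom. The 6 pairwise differences and the interaction (combination minus aspirin minus triptolide plus control) were tested two-sided, with Benjamini-Hochberg adjustment over all genes and a threshold of 0.05. The script was tested on simulated data. Precision is limited by the number of arrays.

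The 10 members, 14 further gene lists (165 symbols in all, 156 of them measured) and the settings were chosen with earlier results of these data known. Named beside the members were called list genes or up to 4 with the smallest p in the combination against control, and the 8 genes with the highest Pearson r with the members' mean level, with and without combination 1; predicted genes, clones, small RNAs, chemosensory receptors and antigen receptor segments were passed over. Genes named outside this rule (Gramd2, Col4a4, Ccn2, Xist and the Y-linked genes) were chosen after their values were seen. Alternatives are given in the closing section.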

Additional observations from a re-analysis of the deposited data

How the results depend on the processing

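All 10 members stayed below control with the combination, and below each single drug, in all 22 other settings. Against control, counts of genes passing, 0 as fitted, were 83 with arrays centred on their median, 3 with quantile normalization, 218 among genes above the median mean level (1 member, Akap5, at an adjusted p of 0.0492), 1704 with array weights (8 members), 56 with trend and robust moderation, 96 with the Y-linked covariate and 4 without combination 1 and aspirin 2, a setting chosen after seeing the data. In the same comparison it was 0 without moderation. Against aspirin they were 1 with median centring, 1 with quantile normalization, 4 with the filter, 873 with array weights (10 members), 1 with trend and robust moderation, 2 with the compared arrays alone and 2 without combination 1 and aspirin 2. Array weights, fitted gene by gene, gave 535 genes for aspirin against control, 1 for the combination against triptolide, 16 for the interaction, 137 for triptolide against aspirin and 10 for triptolide against control, with 0 members in each. The compared arrays alone gave 4 genes for aspirin against control, and leaving out combination 1 and aspirin 2 gave 1 for triptolide against control. Leaving out 1 array gave 0 to 896 genes against control, 0 to 704 for the combination against aspirin, 0 to 24 against triptolide, 0 to 6 for the interaction, 0 to 4 for aspirin and 0 to 3 for triptolide against control. The upper ends came without combination 3 in the first 3 and without triptolide 1 in the others. The cause was not tested.

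Replicate numbers are shared between groups, but the labels do not say what the numbers stand for. Over 15 same-numbered pairs r of the deviations ran from -0.14 to 0.33, and 7 of 11 arrays correlated best with their own number. With the replicate block, 152 genes passed for the combination against control, 1 of them a member (Akap5, adjusted p of 0.0498).

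No difference had passed as fitted, so every sign that turned could only lie in one that had not. The largest of these as fitted was the interaction of Akap5, at -0.69 ± 0.29. For aspirin against control, the block gave Ager -0.04, Akap5 -0.07, Clic5 -0.07, Emp2 -0.05 and Rtkn2 -0.05, and the Y-linked covariate Ager -0.04, Akap5 -0.38, Clic5 -0.15, Emp2 -0.15, Hopx -0.19 and Rtkn2 -0.20, with Akap5's interaction at 0.01. Quantile normalization gave Aqp5 0.01 for aspirin against control and -0.02 for triptolide against aspirin, and Gprc5a 0.01 for triptolide against control. Array weights gave Gprc5a 0.05 for aspirin against control, Aqp5 -0.05 and Gprc5a -0.08 for triptolide against aspirin, and Hopx, Pdpn and Rtkn2 0.04 each for triptolide against control. Leaving out 1 array gave, for aspirin against control, Akap5 -0.08 to 0.17, Clic5 -0.02 to 0.05, Gprc5a -0.10 to 0.06 and Rtkn2 -0.04 to 0.13. It gave, for triptolide against control, Aqp5 -0.12 to 0.07, Gprc5a -0.08 to 0.06, Hopx -0.08 to 0.04, Pdpn -0.06 to 0.02 and Rtkn2 -0.09 to 0.08, and for triptolide against aspirin Aqp5 -0.09 to 0.10 and Gprc5a -0.07 to 0.10.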
